A study of Rattus norvegicus with 8 samples.

Results

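The 10 genes described here make new fatty acids in the liver or switch that programme on. They are the enzymes Acly, Acaca, Acacb, Fasn, Scd1, Elovl6 and Me1, the activator Thrsp, and the transcription factor genes Mlxipl and Srebf1. They were named with earlier results of these data known, and were found by a rule that uses no measured value, as the non-control probes whose gene name in the array files equals one of these symbols. All 10 had a probe, and together they had 12 probes on 21 spots, of 30367 probes on 42877 spots that stand for 26456 gene names in the whole array.

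RNA came from the livers of 8 Wistar rat pups aged 21 days. The MDD (methyl donor deficiency) group held 4 pups, 2 female and 2 male, whose dams ate feed lacking vitamin B12 and folate from before pregnancy up to weaning. The control group held 4 pups, 3 female and 1 male, of dams on standard feed. The deficiency reached the pups through the dam before birth and during suckling, and the dams and litters are not given in the sources used here, so littermates may be among them and a p-value speaks of the spread over these pups alone.

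De novo lipogenesis turns carbon from sugar into fat. ATP-citrate lyase (Acly) splits citrate into acetyl-CoA, acetyl-CoA carboxylase (Acaca and Acacb) makes malonyl-CoA, fatty acid synthase (Fasn) joins these units into palmitate with NADPH that malic enzyme (Me1) helps to supply, Elovl6 lengthens the product and Scd1 puts a double bond into it. In liver the programme is switched on after a carbohydrate meal by SREBP-1c, the product of Srebf1, which follows insulin, and by ChREBP, the product of Mlxipl, which follows glucose. Thrsp encodes Spot 14, a small protein that rises with lipogenesis and with thyroid hormone in rat liver. Suckling rats live on fat-rich milk, and the lipogenic enzymes increase around weaning.

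Each array carried 1 MDD and 1 control liver in different dyes, and 4 arrays of 1 slide held the 8 samples. Between 59.1% and 65.5% of the spots of a sample were well above background, and no spot was saturated. All 7 hepatocyte markers were well above background in every sample, and 3 of them (Ttr, Tf and Serpina1) were called lower in MDD livers. Alb was lower (log2 fold change -1.01) and Apoa1 (0.35), Apob (0.24) and Tat (0.92) were higher, and limma called none of these. The summed normalised intensity of the 7 markers, to which the brightest add most, was 672052 to 1031338 in MDD livers and 1022382 to 1343207 in control livers. The fat cell markers Lep, Adipoq and Retn were well above background in 0, 1 and 1 of the 8 samples. Cidec, Fabp4 and Cfd, from the same marker list, were well above background in all 8, and limma called none of them. The summed intensity of the 8 skeletal muscle markers on the array was 2263 to 9944 in MDD livers and 1248 to 1611 in control livers, and MDD 3 alone held the top value, with at most 3113 in the other 7 samples. Of these markers 4 were tested and 1 was called. It was Tnnc2, a fast muscle troponin gene that was higher in all MDD livers (log2 fold change 2.85 ± 0.194 SE, limma adjusted p = 0.000472). For every other muscle marker on the array the groups overlapped. Ckm, Tnnt3, Tnni2 and Mb were high in MDD 3 alone (log2 intensity 10.22, 9.66, 11.5 and 10.51), and in the other MDD livers they lay near control levels. Among markers of Kupffer, endothelial, stellate, bile duct and red blood cells, limma called 1 gene, the stellate cell gene Lrat (-0.67, lower in MDD livers). A second liver stood apart over all genes: MDD 1 was the lowest of the 8 samples for 26.8% of the genes measured in every sample and the highest for 28.6%. Whether the marker differences play a part in the results below was not tested, and in bulk liver fewer cells of a type and less RNA per cell cannot be told apart.

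The sequences that matter most for the findings are the probe of Thrsp, which carried the largest difference among the 8 tested members, and the promoters of the 3 called genes that the RefSeq promoter table holds. The Thrsp probe lies at chr1:154651216-154651275 on the minus strand of the rn4 build used by the array files.
Thrsp probe: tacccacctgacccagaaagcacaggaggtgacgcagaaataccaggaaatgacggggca
The promoter windows run from 250 bases before to 50 bases after the RefSeq start on GRCr8, and CCAAT boxes on either strand are in capitals (CCAAT, or ATTGG where the box lies on the opposite strand). They lie on the minus strand at chr1:161138915-161139214 (Thrsp), chr10:85963582-85963881 (Acly) and chr12:27213611-27213910 (the first of 2 windows of Mlxipl, which start 4 bases apart).
Thrsp promoter: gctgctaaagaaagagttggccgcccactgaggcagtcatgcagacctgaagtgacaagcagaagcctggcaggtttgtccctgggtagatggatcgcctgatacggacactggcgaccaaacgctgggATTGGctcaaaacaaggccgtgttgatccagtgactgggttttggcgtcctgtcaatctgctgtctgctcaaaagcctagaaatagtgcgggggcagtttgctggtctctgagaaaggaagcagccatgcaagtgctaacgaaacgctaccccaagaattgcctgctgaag
Acly promoter: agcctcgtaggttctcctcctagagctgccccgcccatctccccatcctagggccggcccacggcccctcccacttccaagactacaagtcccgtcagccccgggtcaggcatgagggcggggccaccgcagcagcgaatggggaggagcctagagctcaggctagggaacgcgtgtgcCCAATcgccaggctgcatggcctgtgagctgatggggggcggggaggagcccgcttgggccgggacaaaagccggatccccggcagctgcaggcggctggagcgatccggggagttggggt
Mlxipl promoter: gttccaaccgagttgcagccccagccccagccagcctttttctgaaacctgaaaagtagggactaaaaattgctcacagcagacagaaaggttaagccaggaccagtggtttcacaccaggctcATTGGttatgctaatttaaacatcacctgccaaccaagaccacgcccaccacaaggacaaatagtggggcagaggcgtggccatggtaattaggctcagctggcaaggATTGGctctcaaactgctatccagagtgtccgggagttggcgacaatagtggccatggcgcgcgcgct
Counted from the start site, a CCAAT box begins at -121 in the Thrsp window, at -71 in the Acly window, and at -126 and -18 in the Mlxipl window. In all, 7 of the 10 genes had a window, which leaves out Acaca, Fasn and Elovl6. CCAAT boxes also lay in the windows of Acacb (-72) and of both start sites of Srebf1, and none lay in those of Scd1 and Me1. The motif is common: 37.5% of all 33469 promoter windows of this length hold it. An E-box (CANNTG) lay in the windows of every one of the 7 genes except Me1, and 72.1% of all windows hold one. No member window held TCACNCCAC, a form of the sterol response element that SREBP binds (1.12% of all windows), or a pair of E-boxes 5 bases apart, the form of site that ChREBP binds (0.777%), on either strand. These are letters in a window and not mapped binding sites.

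The question of the diet comparison was how lipogenesis genes differ in the livers of pups whose dams lacked the methyl donor vitamins. Thrsp, Fasn, Acly and Mlxipl were lower in MDD livers, Scd1, Elovl6, Me1 and Srebf1 were not called, and Acaca and Acacb were too dim to be tested. Thrsp stood at 16.5% of its control level, Fasn at 41.2%, Acly at 48.8% and Mlxipl at 70.9%. So limma called 4 of the 8 tested genes lower and 0 higher, where 6.58% of all 14931 genes tested were called lower and 4.53% higher. At an unadjusted p under 0.05, 4 were lower and 1 (Me1) was higher, where 4127 of the 14931 genes had such a p in either direction. The median log2 fold change was -0.33 over the 8 genes and 0.0095 over all genes tested. Fold changes are log2 values of MDD minus control from limma with dye as a term and the array as a block, calls are at a Benjamini-Hochberg adjusted p under 0.05 over all genes, and n = 4 animals in each group throughout.

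Of the activators, Mlxipl encodes ChREBP. Its log2 normalised intensity was 8.18, 7.63, 7.99 and 7.98 in MDD livers 1 to 4, against 8.56, 8.32, 8.56 and 8.32 in control livers 1 to 4. Every MDD liver lay below every control liver, although the gap between MDD 1 and the lowest controls was narrow. The means were 7.94 ± 0.23 in MDD livers and 8.44 ± 0.14 in control livers (SD), a log2 fold change of -0.50 ± 0.102 (SE, limma adjusted p = 0.0198). The signal was dim but well above background in all 8 samples, with raw mean signals of 188.8 to 401.4 over backgrounds of at most 60. It was lower on all 4 arrays, with within-array log2 ratios between -0.69 and -0.35.

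Srebf1 encodes SREBP-1, and its probe was far brighter than that of Mlxipl, although levels of different probes cannot be ranked. Its log2 intensity was 13.05, 13.39, 12.08 and 13.32 in MDD livers, against 12.18, 13.17, 13.24 and 13.03 in control livers. MDD 3 and control 1 were the low samples of their groups, and the other 6 lay close together. Its log2 fold change was 0.06 ± 0.224 (limma adjusted p = 0.896), with a 95% interval of -0.46 to 0.57. The RefSeq table gives 2 start sites for this gene, and whether the probe separates their transcripts is not given in the files.

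Thrsp encodes Spot 14, which promotes fatty acid synthesis. Its log2 intensity was 8.87, 7.86, 8.58 and 9.16 in MDD livers, against 10.31, 12.66, 11.30 and 10.59 in control livers. The highest MDD liver was more than 1 log2 unit below the lowest control, and the controls themselves were spread widely. In raw signal the MDD livers lay between 289.3 and 422 and the control livers between 1364 and 8682. The log2 fold change was -2.60 ± 0.364 (limma adjusted p = 0.00499), which is a level 6.05-fold lower in MDD livers, with a 95% interval of -3.43 to -1.77. By p it ranked 202 among the 14931 genes tested.

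**Figure D1:**
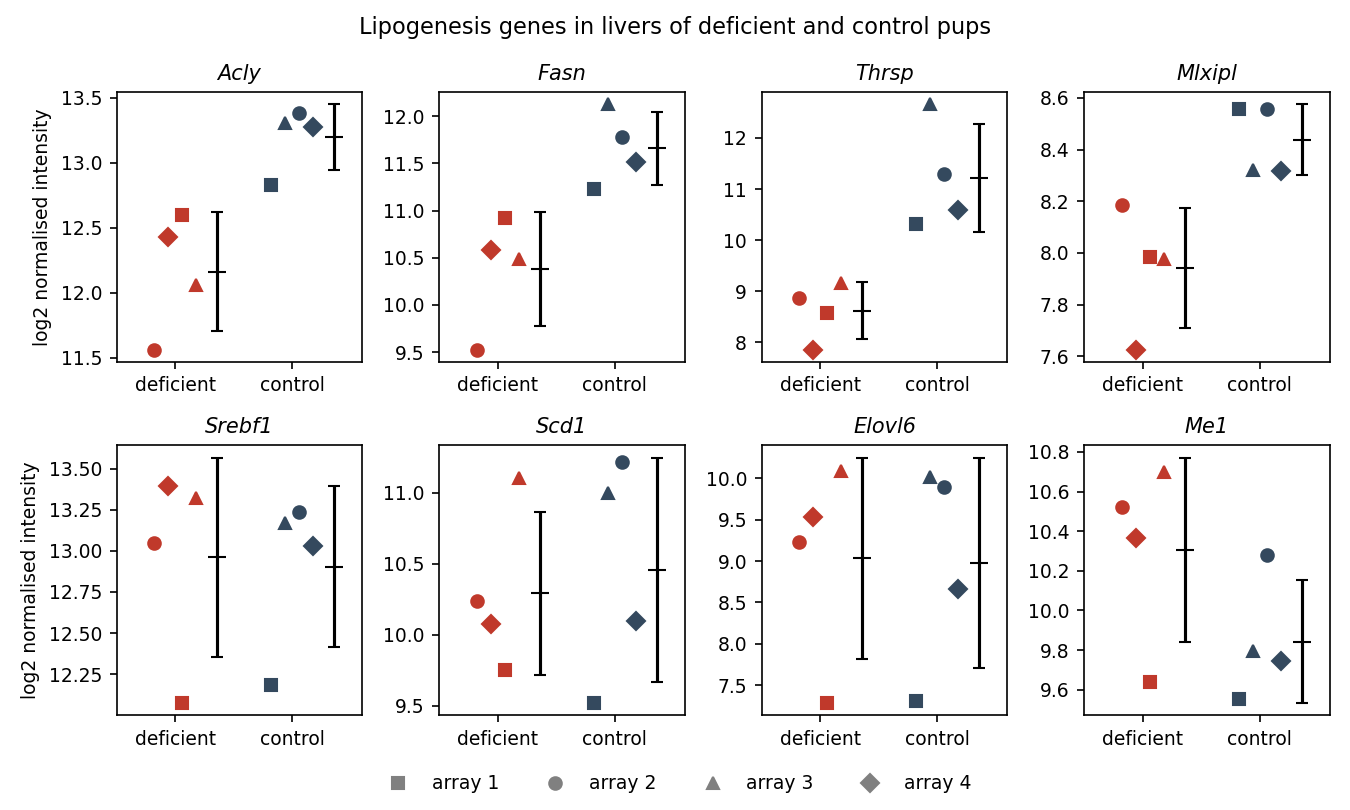
Log2 normalised intensity (vertical axis, its range set for each gene) of the 8 tested genes in MDD livers (left, labelled deficient, red) and control livers (right, blue). Symbols mark the array each liver was on, and the black marks are means with SD (n = 4 in each group). For Acly, Fasn, Thrsp and Mlxipl the 2 groups do not overlap. For Srebf1, Scd1, Elovl6 and Me1 the 2 livers of array 1 (squares) are the lowest of all.

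Acly supplies the acetyl-CoA of the pathway. Its log2 intensity was 11.56, 12.43, 12.60 and 12.06 in MDD livers, against 12.83, 13.31, 13.39 and 13.27 in control livers. The highest MDD liver and the lowest control liver, both on array 1, came close to each other, and the groups did not overlap. The log2 difference was -1.04 ± 0.192 (limma adjusted p = 0.0129). The probe lies at chr10:89420943-89421002 on the minus strand of rn4.

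Me1 supplies NADPH. Its brighter probe, printed 10 times on the array, read 10.52, 10.37, 9.64 and 10.699 in MDD livers, against 9.55, 9.80, 10.28 and 9.74 in control livers. Within each array the MDD liver was the higher one, by 0.09 to 0.90, yet the groups overlapped. Its log2 fold change was 0.46 ± 0.182, with a limma p of 0.0324 that became 0.139 after adjustment. The second probe of the gene gave 0.05 ± 0.128 (limma adjusted p = 0.834), and on array 2 it read lower in the MDD liver (-0.265). So the probes did not give the same size of difference, nor the same sign on every array.

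The committed step of the pathway could not be followed. The Acaca probe was well above background in 0 MDD livers and 2 control livers, and the Acacb probe, for the isoform that liver uses to restrain fatty acid oxidation, in none. Measured means for Acaca were 6.61 ± 0.09 in MDD livers and 6.70 ± 0.16 in control livers (log2, SD), the groups overlapped, and no direction can be given. For Acacb the means were 6.56 ± 0.18 in MDD livers and 6.53 ± 0.15 in control livers, both at background.

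Fasn joins malonyl-CoA units into palmitate. Its log2 intensity was 9.53, 10.58, 10.92 and 10.49 in MDD livers, against 11.22, 12.13, 11.78 and 11.51 in control livers. MDD 1 was the lowest liver for Fasn, as it was for Acly, and the groups did not overlap. The log2 fold change was -1.28 ± 0.257 (limma adjusted p = 0.0177), which is 2.43-fold lower in MDD livers. One more probe, which the files describe as the rat fatty acid synthase gene but do not name Fasn, was well above background in 1 MDD liver and 0 control livers and was not counted among the members.

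Scd1 makes monounsaturated fatty acids. Its log2 intensity was 10.24, 10.08, 9.76 and 11.10 in MDD livers, against 9.52, 10.998, 11.22 and 10.10 in control livers. The groups overlapped over nearly their whole ranges, and the log2 fold change was -0.17 ± 0.273 (limma adjusted p = 0.734) with a 95% interval of -0.79 to 0.46.

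Elovl6 lengthens palmitate to stearate. Its brighter probe read 9.23, 9.54, 7.29 and 10.09 in MDD livers, against 7.30, 10.02, 9.90 and 8.67 in control livers. One liver of each group, MDD 3 and control 1, was more than 1 log2 unit below all others, and the spread within the groups (SD 1.22 in MDD livers and 1.27 in control livers) was the widest of the 8 genes. The log2 fold change was 0.06 ± 0.494 (limma adjusted p = 0.949), with a 95% interval of -1.06 to 1.19, so that a difference of up to about 1 log2 unit either way lies within it. The second probe, which the files place across 4774 bases and which was dim, gave -0.03 ± 0.192 (limma adjusted p = 0.942).

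**Figure D2:**
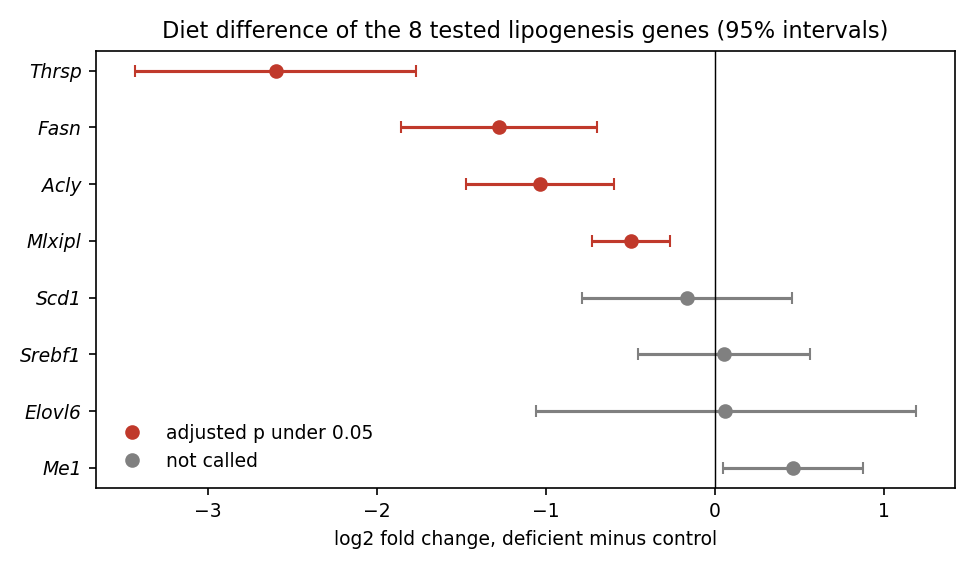
Log2 fold change of MDD minus control livers (horizontal axis) of the 8 tested genes, as points with 95% intervals from limma. Thrsp (-2.60), Fasn (-1.28), Acly (-1.04) and Mlxipl (-0.50) are called lower (red). Scd1, Srebf1 and Elovl6 lie between -0.17 and 0.06, and Me1 lies at 0.46 (grey, not called).

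All MDD livers lay below all control livers for 4 of the 8 genes, the same 4 that were called, where 886 of 14867 genes (5.96%) measured in every sample did so. The differences were not of one size on every array. On array 1, MDD 3 and control 1 differed by only -0.23 for Acly and -0.30 for Fasn, while array 2, with MDD 1 and control 3, gave -1.82 and -2.25. Thrsp ranged from -3.50 on array 3 up to -1.73 on array 1. Mlxipl had its larger differences on arrays 1 and 4 (-0.57 and -0.69) and its smaller ones on arrays 2 and 3 (-0.37 and -0.35), so it did not follow the order of Acly and Fasn.

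**Figure D3:**
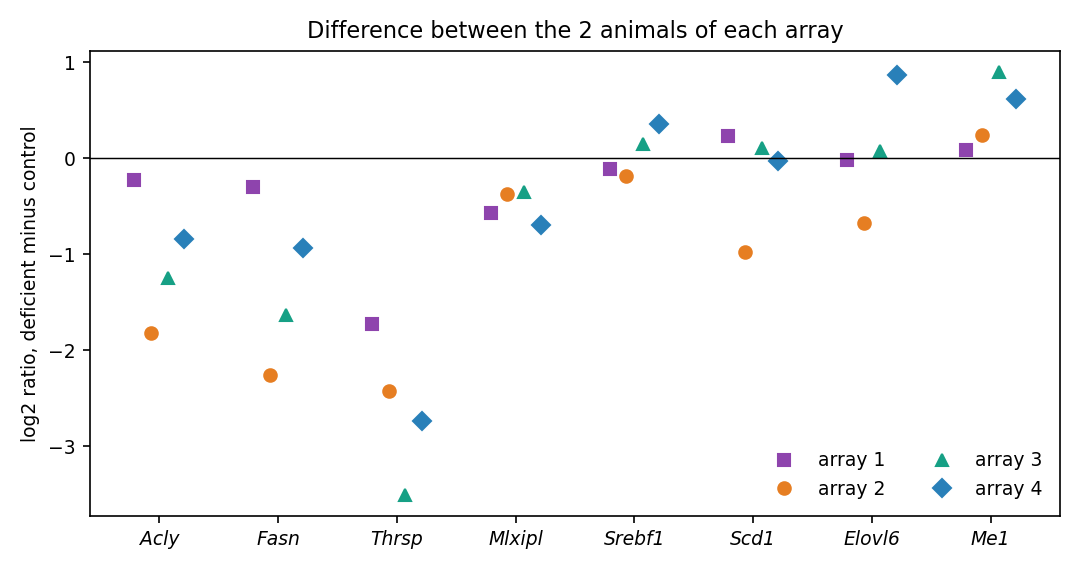
Log2 ratio of the MDD liver to the control liver of the same array (vertical axis) for the 8 tested genes, 1 point for each of the 4 arrays. Each gene is shown by its brightest probe. Acly, Fasn, Thrsp and Mlxipl lie below 0 on all 4 arrays and this probe of Me1 lies above 0 on all 4. Acly and Fasn are nearest to 0 on array 1, at -0.23 and -0.30.

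By their brightest probes, Srebf1, Scd1, Elovl6 and Me1 shared another pattern. For each of them MDD 3 and control 1, the livers of array 1, were the lowest of all 8. Both livers of array 1 were lowest for 842 of 14867 genes (5.66%), and this pattern was seen in the values before it was counted. The mean of the 2 livers minus that of the other 6 was -2.28 for Elovl6, the fourth lowest among 14867 genes, -1.07 for Srebf1 and -0.98 for Scd1. Thrsp, at -0.63, was close to Me1, at -0.64, although its lowest liver was MDD 2. For Mlxipl, Fasn and Acly the same difference was 0.11, 0.07 and 0.04. The raw signals of the brighter Elovl6 probe showed it too, with 109.1 in MDD 3 and 158.6 in control 1 against 409.3 to 1372 elsewhere. The dim second Elovl6 probe did not show the full pattern in log2 intensity. There control 1 was lowest (6.62), but MDD 1 (6.76) lay below MDD 3 (6.86). On the second Me1 probe control 1 (8.72) and MDD 3 (8.87) were again the lowest. Each animal was on a single array, control 1 was the only male control, and MDD 3 was the liver with muscle transcripts, so array, animal and, for control 1, sex cannot be told apart.

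Sex was spread unevenly, with MDD 2, MDD 4 and control 1 male. With sex as a term Thrsp (-2.42, limma adjusted p = 0.0121), Acly (-1.01, 0.0363) and Fasn (-1.25, 0.0473) were still called lower, and Mlxipl was not (-0.49, 0.0598). In the females alone (MDD 1 and 3, and control 2, 3 and 4) Thrsp was called (-3.07, limma adjusted p = 0.0385). The other members were not, with -1.19 for Acly (0.0933), -1.59 for Fasn (0.12), -0.33 for Mlxipl (0.285), -1.58 for Elovl6 (0.12), -0.94 for Scd1 (0.19), -0.66 for Srebf1 (0.19) and 0.07 for Me1 (0.899). That fit kept MDD 3 but left out control 1, the other liver that was lowest for Elovl6, Scd1, Srebf1 and Me1. Only array 2 kept both its livers. What this did to the values was not tested. At an unadjusted p under 0.05, 6 of the 8 were lower in the females. Of the 56 tested genes of the lists below, 19 were lower and 5 higher at that cut. The share over all genes at that cut is not given here for the females. The diet by sex term called 0 genes (limma, 1800 at an unadjusted p under 0.05). Its largest member value was that of Elovl6 (3.84 ± 0.882, adjusted p = 0.411), which rests on the single male control.

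The other genes of the pathway were taken as 5 lists, 62 genes in all, of which 56 were tested. Together 16 were called lower and 6 higher in MDD livers, where 6.58% of all genes tested were called lower and 4.53% higher, with a median log2 fold change of -0.26. Genes of sugar entry and glycolysis that ChREBP is known to control had the most genes called lower of the 5 lists, 6 lower and 0 higher of 11, with a median of -0.55. At an unadjusted limma p under 0.05, 7 of these 11 were lower and 1 was higher. Pklr, the liver pyruvate kinase and a classic ChREBP target, read 10.15, 9.97, 10.73 and 10.11 in MDD livers, against 11.63, 11.78, 11.73 and 11.63 in control livers. Its controls lay close together and above every MDD liver, and its log2 fold change was -1.45 ± 0.127 (limma adjusted p = 0.0011). The fructose enzymes Khk (ketohexokinase) and Tkfc (triokinase) had log2 fold changes of -1.06 and -1.49, and Gckr had -0.59. Of the others called, Slc2a2, the glucose transporter GLUT2, had -0.55.

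Among genes that supply citrate, acetyl-CoA and NADPH, 4 of 11 were called lower and 2 higher, against 6.58% and 4.53% of all genes. Idh1, a cytosolic source of NADPH, had a log2 fold change of -0.82 ± 0.184 (limma adjusted p = 0.0269) and Tkt, the transketolase of the pentose phosphate pathway, -0.74 ± 0.12 (0.0082). Acss2, which makes acetyl-CoA from acetate, had -1.04, and Taldo1 -0.30.

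Acetyl-CoA carboxylase itself was too dim, but 9 genes that set its activity were tested, and 3 were called lower and 1 higher. Of all genes tested, 6.58% were called lower and 4.53% higher. Mid1ip1, a relative of Thrsp that helps the carboxylase to polymerise, had 11.47, 11.67, 12.95 and 11.38 in MDD livers, against 13.56, 13.20, 13.02 and 12.75 in control livers. MDD 3 lay among the controls and the other MDD livers well below them, and the log2 fold change was -1.26 ± 0.254 (limma adjusted p = 0.0178). The AMP kinase subunits Prkab1 and Prkag2 were lower by log2 fold changes of -0.62 and -0.47. Mlycd, which breaks malonyl-CoA down, was higher (0.51, limma adjusted p = 0.0296).

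Of the genes that control SREBP-1 and ChREBP, 1 of 12 was called lower and 2 higher, against 6.58% and 4.53% of all genes, so the share called lower was near that of all genes. Srebf2, which encodes the SREBP of cholesterol synthesis, had a log2 fold change of -0.73 ± 0.146 (limma adjusted p = 0.0178). Nr1h2, which encodes LXR beta, had 0.41, and the coactivator gene Ppargc1b had 0.30. Mlx, the partner of ChREBP, was not called (-0.36 ± 0.136, limma adjusted p = 0.131).

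Of the genes that use new fatty acids, 2 of 13 were called lower and 1 higher, against 6.58% and 4.53% of all genes. The triglyceride enzymes split: Dgat2 had a log2 fold change of -0.51 ± 0.105 (limma adjusted p = 0.0202) and Agpat2 -0.90 ± 0.225 (0.0394), while Dgat1 had 0.51 ± 0.0943 (0.0132). Gpam, the first enzyme of glycerolipid synthesis, was not called (-0.33 ± 0.0901, 0.0509).

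**Figure D4:**
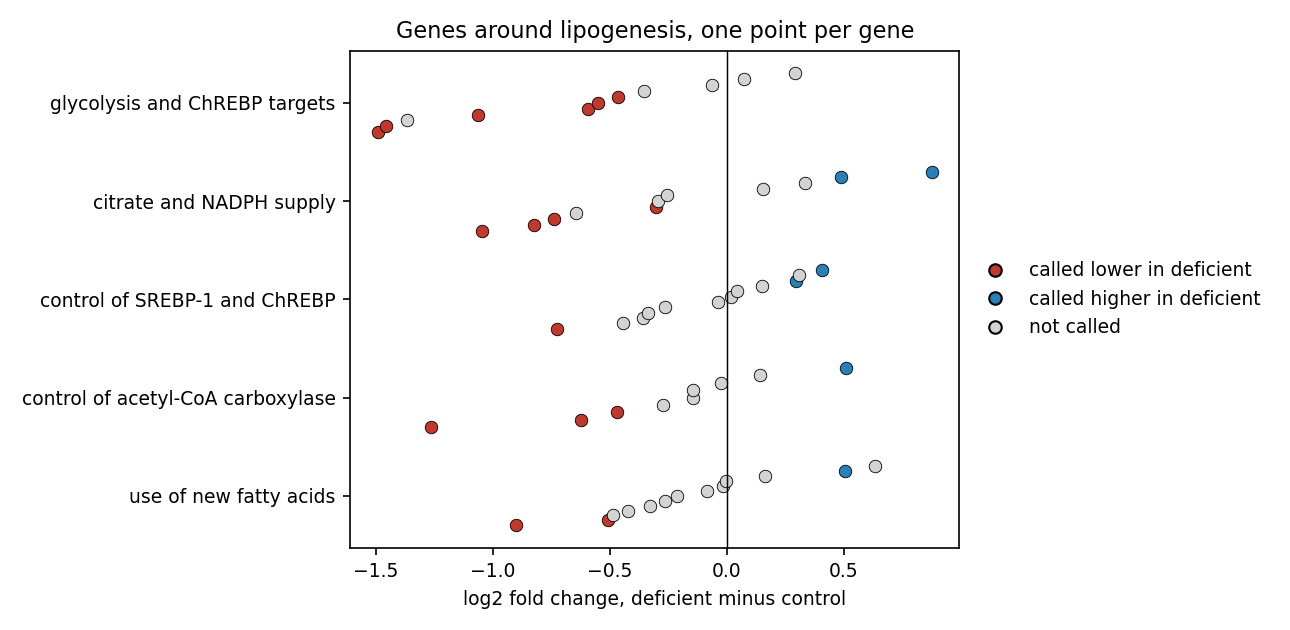
Log2 fold change of MDD minus control livers (horizontal axis) of the 56 tested genes of the 5 lists around lipogenesis, 1 point for each gene. Red points are called lower, blue points higher and grey points not called. The glycolysis and ChREBP list holds 6 genes called lower and 0 called higher, and the other lists hold calls in both directions.

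The 4 falls among the lipogenesis genes differed in how firmly they held when 1 liver was left out. In the paired fit, on the log2 ratio within each array, the fold changes were the same and Thrsp alone was called (limma adjusted p = 0.0237), with 0.0793 for Acly, 0.085 for Fasn and 0.0685 for Mlxipl. Without the array as a block, Fasn (0.062) and Mlxipl (0.116) were no longer called. Thrsp was called in all 25 alternatives, with log2 fold changes between -3.07 and -2.07. Acly was no longer called without MDD 4 (limma adjusted p = 0.0643), control 2 (0.0585) or control 3 (0.0795), and Fasn likewise (0.0897, 0.0622 and 0.0982). Mlxipl was no longer called without MDD 4 (0.0689) or without any one of control 1 (0.0977), 2 (0.0505), 3 (0.11) or 4 (0.0542). Me1 was called higher without MDD 3 (0.71, limma adjusted p = 0.0122). Acly, Fasn and Mlxipl kept their sign in all 25 alternatives, with log2 fold changes between -1.29 and -0.78 for Acly, between -1.61 and -0.95 for Fasn and between -0.67 and -0.33 for Mlxipl. Without MDD 3, the liver with muscle transcripts, the log2 fold changes were -2.75 for Thrsp, -1.50 for Fasn, -1.20 for Acly and -0.48 for Mlxipl, and without MDD 1 they were -2.69, -0.98, -0.82 and -0.59. All 4 genes were called lower with either one of these livers left out.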

How the data were processed

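RNA from 8 livers was measured on Agilent 2-colour rat arrays. The authors deposited 1 scanner table per sample of spot intensities, made by Agilent Feature Extraction (version 10.7.1.1, per the file headers), and a table of intensities normalized in a way that no source used here states. Samples share an array where their files hold identical array data. In limma 3.58.1 (R 4.3.3), intensities were corrected with normexp (offset 50) after 74 spot values with a local background over 5 times the channel median were left out. They were then normalized by loess within arrays and Aquantile between arrays. Outlier spots were dropped, probes averaged, and a probe kept if well above background in at least 4 of 8 samples. The brightest probe stood for a gene. Diet was tested with dye as a term and the array as a random block (correlation 0.422; where it could not be estimated in a reduced fit, this value was used), with Benjamini-Hochberg adjustment of the p-values over 14931 genes. Replicate numbers follow sample order and pair no animals. The number of arrays limits the precision.

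The members, lists, tests and the rule for left-out spots were chosen with earlier results of these data known. Named are all members and, of each list, the 4 genes with the smallest p. Some genes these rules cover are not reported here. Slc2a2, Acss2 and Taldo1 were named after their values were seen. Promoter sequences are from RefSeq (GRCr8), matched by symbol or, for Scd1, by the RefSeq symbol Scd. The 25 alternatives covered background, normalization, filter, probe choice, blocking, sex, sample weights, the deposited table, and leaving out each liver and array.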

Additional observations from a re-analysis of the deposited data

Results flagged for a closer look

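Of 56 groups of 4 livers tested for a single distant sample (in the 8 tested members and 4 genes a list), 3 had 1 liver far from the other 3, where chance flags about 1 in 20. The value given is the gap to the nearest liver as a share of the group's range, read against Dixon's 95% limit. Control 1 lay far below the other control livers for Idh1 (0.838) and for Prkag2 (0.898). Control 4 lay far above the other control livers for Dgat2 (0.839). None of the 8 tested lipogenesis genes passed the limit in either group. The nearest to it were Srebf1 (0.804) and Acly (0.798), both with control 1 as the low liver.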

How the results depend on the processing

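Over 25 alternatives, Thrsp was called lower in 25, Acly in 18, Fasn in 17 and Mlxipl in 13, each with the same sign throughout. Me1 was called higher in 2. In every alternative at least 4 of the tested lipogenesis genes were lower at an unadjusted p under 0.05. Such p-values were common over all genes, at 4127 of 14931 in the main fit in either direction. The cause of the changes below was not tested, except that fits with fewer samples rest on fewer animals. With high-background spots kept, limma called 568 genes lower and 386 higher, with Agilent processed signals 630 lower, and with sample weights 1592 lower and 1272 higher (10 list genes higher). Within-array ratios gave 251 lower and 202 higher, with 1 member and 4 list genes lower and 0 list genes higher (8 at an unadjusted p under 0.05). Without the array block there were 228 lower and 171 higher, with 2 members and 6 list genes lower and 0 list genes higher (7 unadjusted). Sex as a term gave 478 lower and 333 higher, with 8 list genes lower and 2 higher. Females only gave 33 lower and 17 higher, with 1 member lower and 0 list genes in either direction (19 lower and 5 higher unadjusted), and log2 fold changes of -1.58 for Elovl6, -0.94 for Scd1 and -0.66 for Srebf1. The females-only fit kept MDD 3 but left out control 1, and its share of all genes at the unadjusted cut is not given here. Without array 1, 1 member was called higher. Without array 2 there were 483 lower and 424 higher, with 2 members and 6 list genes lower and 3 list genes higher, and Scd1 at 0.073. Without array 3 there were 119 lower and 93 higher, with 1 member and 3 list genes lower and 0 list genes higher (7 unadjusted), and Srebf1 at -0.0090. Without array 4 there were 1674 lower and 1200 higher, with Elovl6 at -0.32 and Srebf1 at -0.082. Leaving out 1 liver at a time gave 191 (without control 3) to 1925 (without MDD 2) genes lower and 194 to 1623 higher. It gave 1 to 4 members lower and 0 to 1 higher, and 3 to 25 list genes lower and 0 to 9 higher. Log2 fold changes then ran between -0.40 and 0.51 for Elovl6, -0.13 and 0.30 for Srebf1, and -0.39 and 0.072 for Scd1. Replicate numbers follow sample order and pair no animals, so the array gave the pairing, as a block in the fit and in the within-array ratios. Acaca and Acacb, tested without the filter on dim probes, had -0.09 ± 0.070 (adjusted p = 0.581) and 0.03 ± 0.077 (0.915). Dim signal limits what can be said of both genes.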

Other observations

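One MDD liver set much of the low end of the genes around lipogenesis. MDD 1 was the lowest of the 8 samples for 25 of the 56 tested list genes (44.6%), against 26.8% of all 14867 genes measured in every sample, and this count was made after its values were seen. The genes include Slc25a1, the mitochondrial citrate exporter, with 8.84 in MDD 1 against 10.25, 10.40 and 10.29 in the other MDD livers and 10.14 to 10.82 in control livers. Fads1, the delta-5 desaturase of polyunsaturated fatty acids, had 10.03 in MDD 1 against 12.17 to 12.37 in the other MDD livers and 11.44 to 12.56 in control livers. Neither gene was called for diet (log2 fold change -0.64 ± 0.236, limma adjusted p = 0.118 for Slc25a1, and -0.49 ± 0.395, 0.466 for Fads1).

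Txnip, a glucose-induced ChREBP target, did not share the lower level of Pklr in MDD livers. It had 9.82, 9.58, 8.16 and 9.24 in MDD livers, against 8.46, 9.61, 9.08 and 9.35 in control livers, with a log2 fold change of 0.07 ± 0.233 (limma adjusted p = 0.867). Like the brightest probes of Elovl6, Srebf1, Scd1 and Me1, it was lowest in the 2 livers of array 1. These genes were singled out after their values were seen.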
